A study of Mus musculus with 38 samples.

Results

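Ahr, Stat3 and Id2 encode transcription regulators that were followed together in the spleen of DBA/2 mice after a dose of cyclophosphamide, an alkylating drug that kills dividing cells. The members were probes whose annotated gene was Ahr, Stat3 or Id2. The 3 genes had been selected on measured values, as regulators with a higher spleen to marrow ratio on day 1 or day 2 after the drug. The rule found 4 of 13443 probes: 1 for Ahr, 1 for Stat3 and 2 for Id2. They stand for 3 of 9616 named genes. The second Id2 probe had no value on any array, so 3 member probes entered the fit of 8319 probes, each seen in no fewer than 3 mice per group. Splenocyte RNA came from 5 untreated mice, 4 mice on day 1, 5 mice on day 2 and 5 mice on day 5 after an intraperitoneal dose of 83 mg/kg, and each mouse was measured on 2 technical arrays, 38 in all. All groups were DBA/2. The labels call these biological replicates, taken here as separate mice, and no label gives their age or sex. The DBA/2 strain is known to carry a form of the aryl hydrocarbon receptor with low affinity for its ligands.

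On each array, spleen RNA in Cy5 was set against a common pool of untreated DBA/2 bone marrow in Cy3. The treatment field of that pool names cyclophosphamide, which goes against its description as untreated. A value of 0 means equal signal in spleen and marrow pool, and no dyes were swapped, so a level against 0 can hold a dye effect that is shared by all groups. The log base is not stated and was taken as 2. The arrays gave 5829 to 10407 values each. Over the probes with a value on both (5374 to 9916), the 2 arrays of a mouse correlated with r of 0.581 to 0.962. The lowest were untreated mice 4 and 2 and day 5 mouse 5. In untreated spleens the B cell markers stood above the marrow pool in 5 of 5 mice, by 0.48 ± 0.16 (mean log2 ratio ± SD, 6 probes), and the T cell markers in 5 of 5, by 0.41 ± 0.19 (5 probes). The neutrophil markers stood below it in all 5 mice, at -2.31 ± 0.44 (4 probes), the direction of a spleen set against marrow. In such bulk RNA, more cells of a type and more RNA of a gene per cell cannot be told apart.

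The aryl hydrocarbon receptor, encoded by Ahr, is a ligand-activated factor of the basic helix-loop-helix and PAS family that pairs with ARNT and binds DNA elements with the core GCGTG. It is known for inducing drug-metabolising enzymes such as Cyp1a1 and for shaping lymphocytes, macrophages and dendritic cells. STAT3 is phosphorylated by Janus kinases at cytokine receptors such as those for IL-6 and IL-10 and then binds elements of the form TTCNNNGAA. ID2 has a helix-loop-helix region but no DNA-binding part. It pairs with E proteins and keeps them off E-boxes, CANNTG, and is known to be needed for natural killer cells, innate lymphoid cells and some dendritic cells.

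The promoters are shown because the members were higher on the same days and each codes for, or acts on, a factor with a known DNA element. RefSeq windows of 300 bases, 250 before and 50 after the start site on GRCm38.p6, matched 2 of the 3 members. They come from the reference strain, C57BL/6J, not from DBA/2. Stat3 lies at chr11:100939491-100939790 and Id2 at chr12:25096043-25096342, both on the minus strand. Each is written 5′ to 3′ along the gene, with every match to GCGTG, TTCNNNGAA or CANNTG on either strand in capitals.
Stat3: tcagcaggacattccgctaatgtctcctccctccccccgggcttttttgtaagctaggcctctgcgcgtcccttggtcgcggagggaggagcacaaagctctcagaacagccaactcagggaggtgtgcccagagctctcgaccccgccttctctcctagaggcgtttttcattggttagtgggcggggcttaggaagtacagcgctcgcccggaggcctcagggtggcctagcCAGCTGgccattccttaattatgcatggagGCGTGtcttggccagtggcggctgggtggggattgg
Id2: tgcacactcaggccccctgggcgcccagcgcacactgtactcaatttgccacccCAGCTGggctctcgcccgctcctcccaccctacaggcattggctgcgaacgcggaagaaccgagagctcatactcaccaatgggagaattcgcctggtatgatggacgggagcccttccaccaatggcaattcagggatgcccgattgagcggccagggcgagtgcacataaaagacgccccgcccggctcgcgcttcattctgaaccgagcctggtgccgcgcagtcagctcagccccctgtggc
The Stat3 window held 1 GCGTG, at bases 265 to 269 counted from 1 at the left end, and 1 E-box, at bases 235 to 240. The Id2 window held 1 E-box, at bases 55 to 60, and no GCGTG. Neither held TTCNNNGAA, and the 3 kinds of match did not overlap. Of all 32851 windows of that length, 32.39% held GCGTG, 8.298% held TTCNNNGAA and 72.31% held CANNTG, so a match to GCGTG or CANNTG was common.

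Ahr, the ligand sensor, was the member that stood clear of every untreated mouse on both day 1 and day 2. Its log2 ratios were 0.49, 0.37, -0.05, -0.17 and 0.50 in untreated mice 1 to 5, then 1.24, 1.48, 1.41 and 1.38 on day 1. They were 1.26, 1.40, 1.79, 1.11 and 1.51 on day 2 and 0.57, 1.28, 1.21, 0.48 and 0.26 on day 5. Every mouse on day 1 and day 2 lay above every untreated mouse, while on day 5 mice 2 and 3 lay at the day 1 and day 2 level and the other 3 near the untreated range. The means were 0.23 ± 0.32 in untreated mice, 1.38 ± 0.10 on day 1, 1.42 ± 0.26 on day 2 and 0.76 ± 0.46 on day 5 (SD, n = 5, 4, 5 and 5). The difference was 1.15 on day 1 against untreated mice, or 2.22-fold, and 1.19 on day 2, or 2.28-fold. These contrasts chose the members, so they are given as a description. Of the 8319 probes, 35 had a larger rise on day 1 and 31 on day 2.

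Stat3, the cytokine signal carrier, had the smallest elevation and the most overlap between groups. Its log2 ratios were -0.40, -0.05, -0.12, -0.83 and 0.34 in untreated mice, and 0.41, 0.44, 0.02 and 0.04 on day 1. They were 0.34, 0.09, 0.81, 1.13 and 0.60 on day 2 and 0.29, -0.55, -0.10, 0.07 and -0.33 on day 5. Untreated mouse 5 lay inside the range of day 1 and of day 2, and the day 5 values lay within the untreated range. The means were -0.21 ± 0.44 in untreated mice, 0.23 ± 0.23 on day 1, 0.59 ± 0.40 on day 2 and -0.13 ± 0.33 on day 5 (SD). The difference from untreated mice was 0.44 on day 1, or 1.36-fold, and 0.81 on day 2, or 1.75-fold. Many probes differed more in this direction, 609 on day 1 and 162 on day 2.

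Id2, the E protein inhibitor, had the largest elevation, and its highest values were on day 2. Its log2 ratios were 0.02, -0.70, 0.28, -0.57 and 0.49 in untreated mice, and 1.19, 1.22, 0.44 and 0.26 on day 1. They were 1.29, 1.09, 1.77, 1.42 and 1.91 on day 2 and 0.06, 0.92, 0.07, 0.94 and 0.01 on day 5. On day 1 mice 1 and 2 were high and mice 3 and 4 lay inside the untreated range, whereas on day 2 every mouse lay above every untreated mouse. The means were -0.10 ± 0.52 in untreated mice, 0.78 ± 0.50 on day 1, 1.49 ± 0.34 on day 2 and 0.40 ± 0.48 on day 5 (SD). The difference from untreated mice was 0.88 on day 1, or 1.84-fold, and 1.59 on day 2, or 3.02-fold. Only 1 of the 8319 probes had a larger rise on day 2, and 90 had one on day 1.

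The low Id2 value of untreated mouse 2 rests on arrays that disagreed, at 0.32 and -1.73. With its second array left out, a choice made after seeing the gap, the Id2 difference was 0.67 on day 1, 1.39 on day 2 and 0.29 on day 5. The direction was the same on each day, and the rule had used the day 1 and day 2 contrasts.

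**Figure D1:**
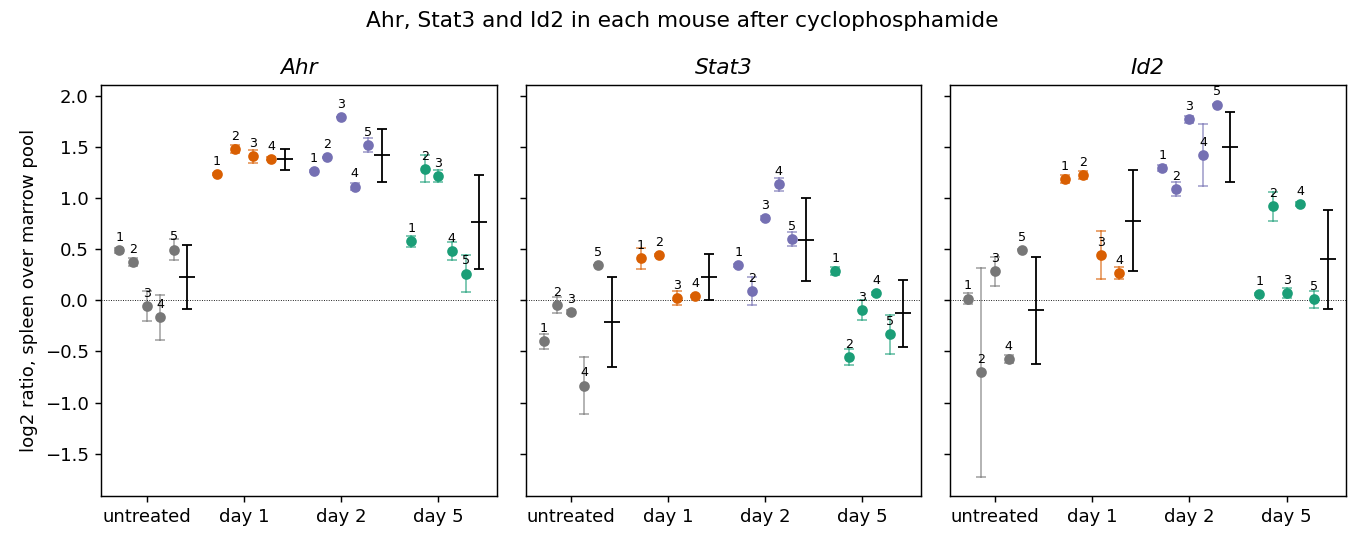
Log2 ratio of spleen over the marrow pool for Ahr, Stat3 and Id2, in untreated mice and on days 1, 2 and 5. Each numbered point is a mouse, thin bars span its 2 arrays, and black bars are the group mean ± SD. Ahr is above all untreated mice on days 1 and 2, Id2 on day 2, and the 2 arrays of untreated mouse 2 lie far apart for Id2.

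Set by the rise on each day, the members came in a different order. On day 1 the order of the differences was Ahr at 1.15, Id2 at 0.88 and Stat3 at 0.44, and on day 2 it was Id2 at 1.59, Ahr at 1.19 and Stat3 at 0.81. These differences are on each probe's own scale, and levels were not compared between probes. Between day 2 and day 1, Ahr differed by 0.04, less than the SD of either group, while Stat3 differed by 0.37 and Id2 by 0.72. Every mouse of the treated group lay above every untreated mouse for 1 of 3 members on day 1 and 2 of 3 on day 2, and for 4.24% and 3.86% of all probes. At an adjusted p under 0.05 (limma, Benjamini-Hochberg over all probes), the higher calls included 1 of 3 members on day 1 (Ahr) and 3 of 3 on day 2, where 0.938% and 3.31% of all probes were called higher. Nothing is read from these counts, because the rule used those contrasts.

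Day 5 was not part of the rule, although it shares its untreated mice with the contrasts that were. Ahr averaged 0.54 ± 0.19 (SE) higher on day 5 than in untreated mice, a 1.45-fold difference with a 95% interval of 0.134 to 0.936. All 5 day 5 mice lay above the untreated mean and 3 of 5 above every untreated mouse. The difference did not pass the test over all probes (adjusted p = 0.923, limma), though its unadjusted limma p was 0.0115. Id2 was 0.50 ± 0.27 (SE) higher, with an interval of -0.0555 to 1.05 and an adjusted p of 0.923. Stat3 differed by 0.09 ± 0.22 (SE), with an interval of -0.363 to 0.534 and an adjusted p of 0.989. Its sign turned to -0.07 without untreated mouse 4 and to -0.02 without day 5 mouse 1. Thus 0 of 3 members were called on day 5, against 0.0481% of all probes called higher and 0.024% called lower, which is 6 probes in all, with 434 at an unadjusted p under 0.05.

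The day 5 values lay below those of day 2 by 0.65 for Ahr, 0.72 for Stat3 and 1.09 for Id2. Every day 5 mouse lay below every day 2 mouse for Id2, as for 2.57% of all probes, and not for Ahr or Stat3. Because day 2 helped to choose the members, these differences are a description too. In no member did all day 5 mice lie above all untreated mice, which 0.673% of probes showed. On day 5 the high mice were not the same for each gene: mice 2 and 3 for Ahr, mice 2 and 4 for Id2, and mouse 1 for Stat3.

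Across the 19 mice, Pearson's r between members was 0.730 for Ahr and Id2, 0.720 for Stat3 and Id2 and 0.558 for Ahr and Stat3. With each group's mean removed it was 0.264, 0.378 and 0.0328, so mouse by mouse the genes moved together much less than the groups did. The points share arrays and the marrow pool, and the shared rise chose the members.

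No measured gene around Ahr passed the test on any day. Over all probes, 0.938% were called higher on day 1, 3.31% on day 2 and 0.0481% on day 5. The shares called lower were 1.39%, 5% and 0.024%, so 0 calls among so few genes says little about the pathway. Of the 9 partners and chaperones listed, 3 were measured (Arnt2, Ptges3 and Rela) and 0 called. Rela, an NF-kappaB subunit that can pair with the receptor, had a log2 difference of 0.36 on day 2 (adjusted p = 0.130, limma). Arnt, the main partner, had a value in only 1 mouse. Among 11 target genes, 5 were measured and 0 called. Cyp1a1, the classic target and a drug-metabolising monooxygenase, averaged -0.23 ± 0.27 on day 1 and -0.24 ± 0.21 in untreated mice (SD, n = 4 and 5). Its day 2 mean was -0.35 ± 0.28 (n = 4), a difference of -0.10 (adjusted p = 0.787). Ahrr, the receptor's repressor, differed by -0.12 on day 1 and 0.16 on day 2, Nqo1, a quinone reductase, by -0.33 and -0.31, and Cyp1a2, another monooxygenase, by -0.03 and 0.08. The median of the 5 targets was -0.05 on both days, beside 0.02 and 0.01 over all probes. The enzymes that make receptor ligands from tryptophan (3 of 6 measured, 0 called) had log2 differences between -0.21 and 0.14 on days 1 and 2. Ido1, which opens the kynurenine route, differed by -0.05 on day 1 and 0.09 on day 2.

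In the STAT3 pathway, the cytokines, receptors, kinases and inhibitors gave 0 calls on any day. With few genes measured, and 0.938% and 3.31% of all probes called higher on days 1 and 2, this says little about the pathway. The 5 of 10 ligand genes measured included Il6, at -0.24 on day 1 and 0.02 on day 2, and Il10, at -0.08 and 0.07. Of the receptors, 3 of 11 were measured. Il10rb, a chain of the IL-10 receptor, had the lowest day 2 value at -0.63 (adjusted p = 0.263, limma), and Osmr, the oncostatin M receptor, the highest at 0.50 (adjusted p = 0.388). The Janus kinases Jak3 and Tyk2 lay between -0.15 and 0.12 on days 1 and 2. Among inhibitors, 6 of 10 were measured. Ptpn6, the phosphatase SHP-1, came nearest to the threshold, at 0.23 ± 0.30 on day 1 and -0.28 ± 0.21 in untreated mice (SD, n = 4 and 5), with an adjusted p of 0.132. Socs1, a feedback inhibitor, differed by 0.23 on day 1 and 0.28 on day 2, and Socs3 had too few values, in 8 mice, to be tested. Stat4 and Stat6, the other family members measured (2 of 6), differed by 0.08 and 0.28 on day 1 and 0.23 and 0.08 on day 2.

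Hif1a was the exception among the STAT3 targets, where 8 of 18 were measured. It encodes the oxygen-regulated subunit of HIF-1, which pairs with ARNT as the aryl hydrocarbon receptor does. On day 1 its log2 ratios were 0.87, 0.64, 0.87 and 0.64, on day 2 they were 0.64, 0.66, 0.67, 0.79 and 1.12, and in untreated mice 0.20, 0.07, -0.13, -0.08 and 0.36. All mice of both days lay above all untreated mice. Hif1a rose by 0.67 ± 0.14 (SE) on day 1 and 0.69 ± 0.13 on day 2 (adjusted p = 0.0101 and 0.00170, limma). On day 5 it differed from untreated mice by 0.13 (adjusted p = 0.952). The day 1 call was lost with the second technical arrays alone (0.61, adjusted p = 0.0742) and when the 3 mice whose own arrays correlated least were dropped (0.61, adjusted p = 0.0528). The other 7 measured targets did not pass on any day. Among them Junb, an AP-1 subunit, differed by 0.36 on day 1 (adjusted p = 0.170), Fos, its partner, by 0.40 on day 2 (adjusted p = 0.191), and Myc, a growth regulator, by -0.12 on day 2. The median of the 8 was 0.15 on day 1 and -6.775e-05 on day 2.

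Of the other ID genes, all 3 were measured and Id4 rose on day 2. Its values on day 2 were 1.02, 0.54, 1.27, 0.70 and 1.06, against 0.50, -0.50, 0.06, -0.23 and 0.21 in untreated mice, with no overlap. The rise was 0.91 ± 0.20 (SE, adjusted p = 0.00764, limma), and the call was lost under quantile normalization (0.68, adjusted p = 0.0684), under equal spread of arrays (0.76, adjusted p = 0.0636) and when those 3 mice were dropped (0.66, adjusted p = 0.0750). Id1 differed by -0.16 and Id3 by 0.14 on day 2, and neither passed on any day. ID proteins act on the E proteins, of which, with their partners, 2 of 7 were measured and 0 called. Tcf4, the E protein E2-2 of plasmacytoid dendritic cells and B cells, differed by 0.62 on day 1 (adjusted p = 0.0941) and 0.29 on day 2. Of 12 E protein target genes 4 were measured and 0 passed. So few genes were measured in either list that 0 calls says little, as 0.938% and 3.31% of all probes were called higher on days 1 and 2. On day 2 they were Rag2, a recombinase of developing lymphocytes, at -0.45, Vpreb1, of the surrogate light chain, at -0.35, Foxo1 at -0.22 and Cd79a, of the B cell receptor, at 0.29 (adjusted p = 0.211 to 0.734).

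Among lineage factors in which these regulators take part, 1 gene changed. Notch1, a receptor that directs progenitors to the T cell fate, fell on day 2, with log2 ratios of -0.74, -1.14, -0.26, -0.54 and -1.23 on day 2 and -0.04, 0.08, -0.14, 0.02 and -0.47 in untreated mice. The groups overlapped through untreated mouse 5 and day 2 mouse 3. The difference was -0.67 ± 0.18 (SE, adjusted p = 0.0250, limma), and the call was lost when any 1 of untreated mice 1, 2 and 4 or day 2 mice 2 and 5 was left out (-0.65, -0.62, -0.64, -0.58 and -0.56). It was also lost under both rescalings of the arrays (-0.50 with quantile normalization and -0.52 with equal spread), with the second technical arrays alone (-0.68), in a fit of only the groups compared (adjusted p = 0.0672) and when the 3 mice of least correlated arrays were dropped (-0.56). The other 8 of 9 lymphocyte factors measured, of 22 listed, were not called on any day, nor were the 5 of 12 helper T cell regulators or the 7 of 21 myeloid factors. Gata3 and Tbx21, which direct helper T cells, differed by 0.28 and 0.25 on day 2. Batf3, a dendritic cell factor, averaged 2.40 ± 0.39 on day 2 and 1.53 ± 1.06 in untreated mice (SD, n = 5 each), with an adjusted p of 0.216. Spi1, encoding PU.1, differed by 0.55 on day 2 (adjusted p = 0.282).

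Over the 15 pathway and fate lists, 65 of 156 genes were measured. On day 1, 1 was higher and 0 lower, or 1.54% and 0%, against 0.938% and 1.39% of all probes. On day 2, 2 were higher and 1 lower, or 3.08% and 1.54%, against 3.31% and 5%, and on day 5 none was called. These shares were near or below those of all probes. The median log2 difference of the 65 was 0.05 on day 1, 0.04 on day 2 and 0.01 on day 5. The 3 comparisons share their untreated mice.

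**Figure D2:**
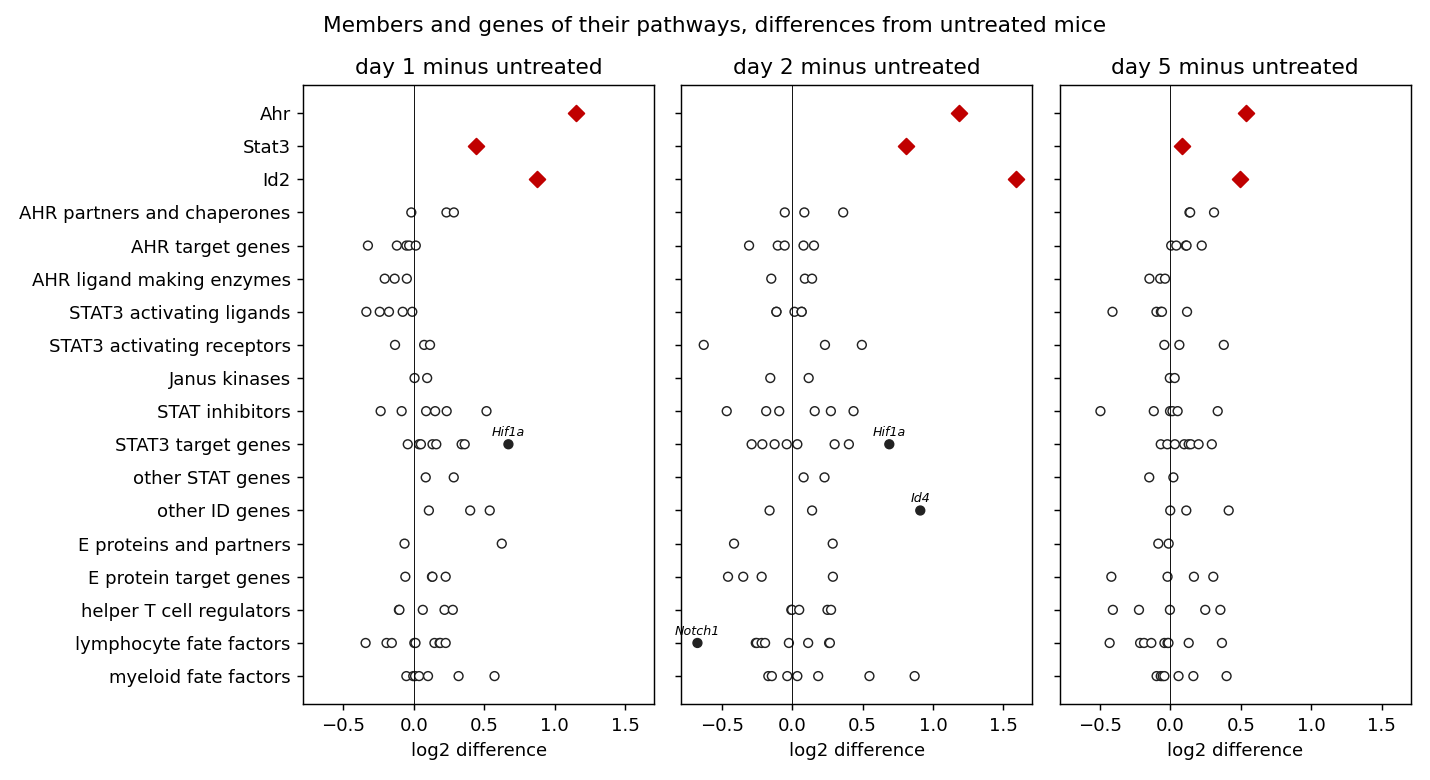
Log2 difference of each day minus untreated mice for the 3 members (red diamonds) and the measured genes of 15 lists (circles, filled where adjusted p is under 0.05). Hif1a is filled on days 1 and 2, Id4 and Notch1 on day 2 and none on day 5, and most circles lie between -0.5 and 0.5.

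The genes most like each member were taken as the 5 with the highest Pearson r over the mice, among 5004 probes with 1 named gene and a value in at least 17 mice. They share the arrays and the marrow pool with the member, and r is a description. The pooled r that picked them includes differences within groups, so r with group means removed is a description too. For Ahr these were Frmd4b (r = 0.894), Siglec1 (0.867), B4galt4 (0.866), Col14a1 (0.861) and Rnaset2b (0.855). Rnaset2b has a near-identical copy, Rnaset2a, so its identity is uncertain. Siglec1 encodes the sialoadhesin of marginal metallophilic macrophages, Col14a1 a fibril-associated collagen and B4galt4 a galactosyltransferase. Siglec1 averaged 0.77 higher on day 1 and 1.24 higher on day 2 than in untreated mice, and Frmd4b 1.19 and 1.04 higher. With group means removed, r with Ahr lay between 0.551 and 0.675 for the 5 genes.

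For Stat3 the 5 were Ankrd2 (r = 0.794, 18 mice), Parva (0.774), Vps37a (0.769), Kank3 (0.768) and Ppcs (0.763). Parva encodes an actin-binding adhesion protein, Vps37a a subunit of the ESCRT-I sorting complex and Ppcs an enzyme of coenzyme A synthesis. With group means removed, Vps37a, below Ankrd2 and Parva in the pooled r, had the highest r of the 5, at 0.788, and its own group differences were small, 0.34 on day 1 and 0.27 on day 2. Kank3 had the largest differences, 0.75 and 1.34.

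For Id2 the 5 were Npc2 (r = 0.866, 17 mice), Bhmt2 (0.850), Cd96 (0.838), Itm2b (0.830) and Hap1 (0.83). Cd96 is a receptor of T and natural killer cells, and Npc2 a cholesterol carrier of the lysosome. Their r with group means removed lay between 0.562 and 0.777, the highest for Cd96. On day 2 Bhmt2 was 1.20 higher than in untreated mice and Cd96 0.68 higher. Under the other settings tried, r lay between 0.638 and 0.893 for the genes of Ahr, 0.661 and 0.822 for those of Stat3 and 0.704 and 0.868 for those of Id2.

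**Figure D3:**
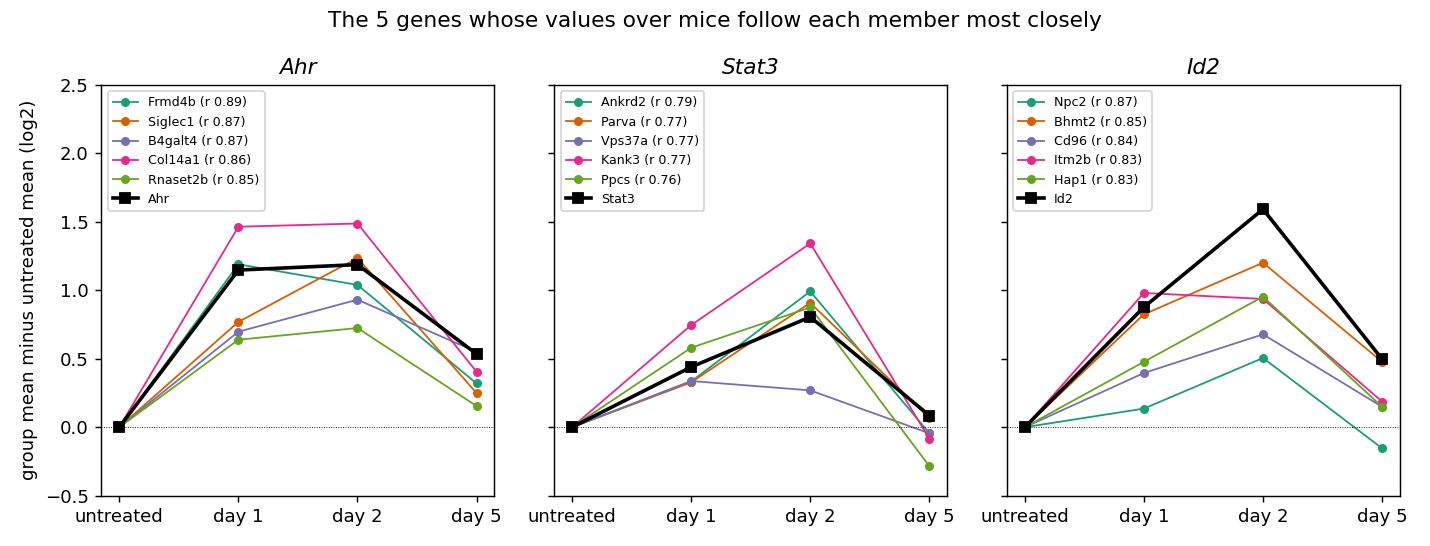
Group means minus the untreated mean (log2) of each member (black squares) and of the 5 genes of highest r with it (coloured lines), over untreated mice and days 1, 2 and 5. All 5 genes of Ahr are higher on days 1 and 2 than on day 5, and the Stat3 and Id2 panels are led on day 2 by Kank3 at 1.34 and Id2 itself at 1.59.

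The markers of the cells in which these regulators act were read beside them, as the mean of each list's probes, each probe centred on its mean over all mice. All marker lists were drawn up with earlier results of these data known, so their counts of calls are a description. The macrophage markers (6 of 12 measured) lay at 0.047 to 0.531 on day 1 and -0.241 to 0.935 on day 2, against -0.913 to -0.185 in untreated mice. The stroma and endothelium markers (10 of 11) lay at 0.198 to 0.512 on day 1 and -0.336 to 0.489 on day 2, against -0.772 to -0.167 in untreated mice. On day 1 both lists lay above every untreated mouse, as Ahr did. On day 2 both lists overlapped untreated mice, whereas Ahr did not. Of the macrophage markers 6 of 6 had a positive difference on each of these days. At an adjusted p under 0.05, 1 of 6 was called higher on day 1 and 2 of 6 on day 2, against 0.938% and 3.31% of all probes. Siglec1 rose by 0.77 and 1.24 (adjusted p = 0.0124 and 2.222e-05, limma), and Mrc1, the mannose receptor, by 1.08 on day 2 (adjusted p = 0.0363). Of the stroma markers 8 of 10 had a positive difference on day 1 and 7 of 10 on day 2, and 2 of 10 were called higher on each day. Col14a1 rose by 1.46 and 1.49 (adjusted p = 0.00935 and 0.00173), and Clu, clusterin, by 1.50 and 1.26 (adjusted p = 0.0447 and 0.0378). Siglec1 and Col14a1 are also among the genes most like Ahr.

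On day 5 the macrophage list was highest in mouse 2 (0.43) and low in mouse 3 (-0.27) and mouse 5 (-0.41), and the stroma list likewise stood at 0.38, -0.46 and -0.56 in these mice. Ahr was high in mice 2 and 3 and lowest in mouse 5. The part of these cells in the values of Ahr, Stat3 and Id2 was not tested.

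The lists of cells that are known to need Id2 gave no calls among the few markers measured. Over all probes, 0.938% were called higher and 1.39% lower on day 1, and 3.31% and 5% on day 2. With so few markers, the lack of calls says little about these cells. The natural killer and innate lymphoid markers (6 of 12 measured) lay at -0.079 to 0.235 on day 1, -0.122 to 0.248 on day 2, against -0.288 to 0.080 in untreated mice, with 0 of 6 called. The dendritic cell markers (3 of 10) lay at -0.181 to 0.177 on day 1, -0.320 to 0.669 on day 2, against -0.319 to 0.409 in untreated mice, with 0 of 3 called. The T cell list (5 of 13) lay at -0.249 to 0.255 on day 1 and -0.283 to 0.460 on day 2, against -0.396 to 0.034 in untreated mice, so the groups overlapped. The B cell list (6 of 10) lay at 0.093 to 0.246 on day 1 and -0.104 to 0.207 on day 2, against -0.159 to 0.119 in untreated mice, and overlapped too. None of their markers was called on any day.

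The red cell precursor markers (10 of 14 measured) moved the other way, at -0.940 to -0.004 on day 1 and -1.41 to -0.390 on day 2, against 0.329 to 0.851 in untreated mice. Only 1 of 10 had a positive difference on each of these days. At an adjusted p under 0.05, 4 of 10 were called lower on day 1 and 7 of 10 on day 2, against 1.39% and 5% of all probes. On day 2 Alas2, which starts haem synthesis in red cells, fell by 3.94 (adjusted p = 1.24e-07, limma). These counts use 1 probe per gene. The list was drawn up with earlier results of these data known, so the counts are a description. A second Rhd probe was lower by 0.34 on day 1, not called, and by 1.33 on day 2 (adjusted p = 0.0311, limma). For Car2 a second probe differed by -0.16 and -0.61 and was called on neither day. On day 5 the list lay at 0.209 to 1.02, overlapping untreated mice, and 0 of 10 were called. The order of its 4 group means was the inverse of that of Ahr, Stat3 and Id2. Nothing is read from that order, because the rule chose the members for high values on day 1 or day 2. Its part in the members' ratios, through the make-up of the RNA, was not tested.

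In the other lists calls were few. The megakaryocyte and platelet markers (4 of 9) had medians of -0.69 in untreated mice, 0.02 on day 1, 0.25 on day 2 and 0.62 on day 5. Itga2b, the platelet integrin chain, rose by 0.85 on day 2 and 1.11 on day 5 (adjusted p = 0.0157 and 0.0396, limma). Among the monocyte markers (5 of 9), 3 of 5 had a positive difference on day 2, with a median log2 difference of 0.25, and 5 of 5 on day 5, with a median of 0.44. Within that list F13a1, a coagulation factor chain, fell by 0.85 on day 2 and rose by 1.25 on day 5 (adjusted p = 0.0209 and 0.0396). The day 5 calls of Itga2b and F13a1 were lost with the second technical arrays alone, with a variance trend and with the replicate block. In each of these settings 0 probes were called on day 5. Of the eosinophil and basophil markers (5 of 8), 2 of 5 had a positive difference on day 2 and the median difference was -0.01. Within that list Ccr3, the eotaxin receptor, rose by 1.37 on day 2 (adjusted p = 0.00560). Of the neutrophil markers (4 of 12) 0 were called, with median differences of -0.41 on day 1 and -0.55 on day 2.

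**Figure D4:**
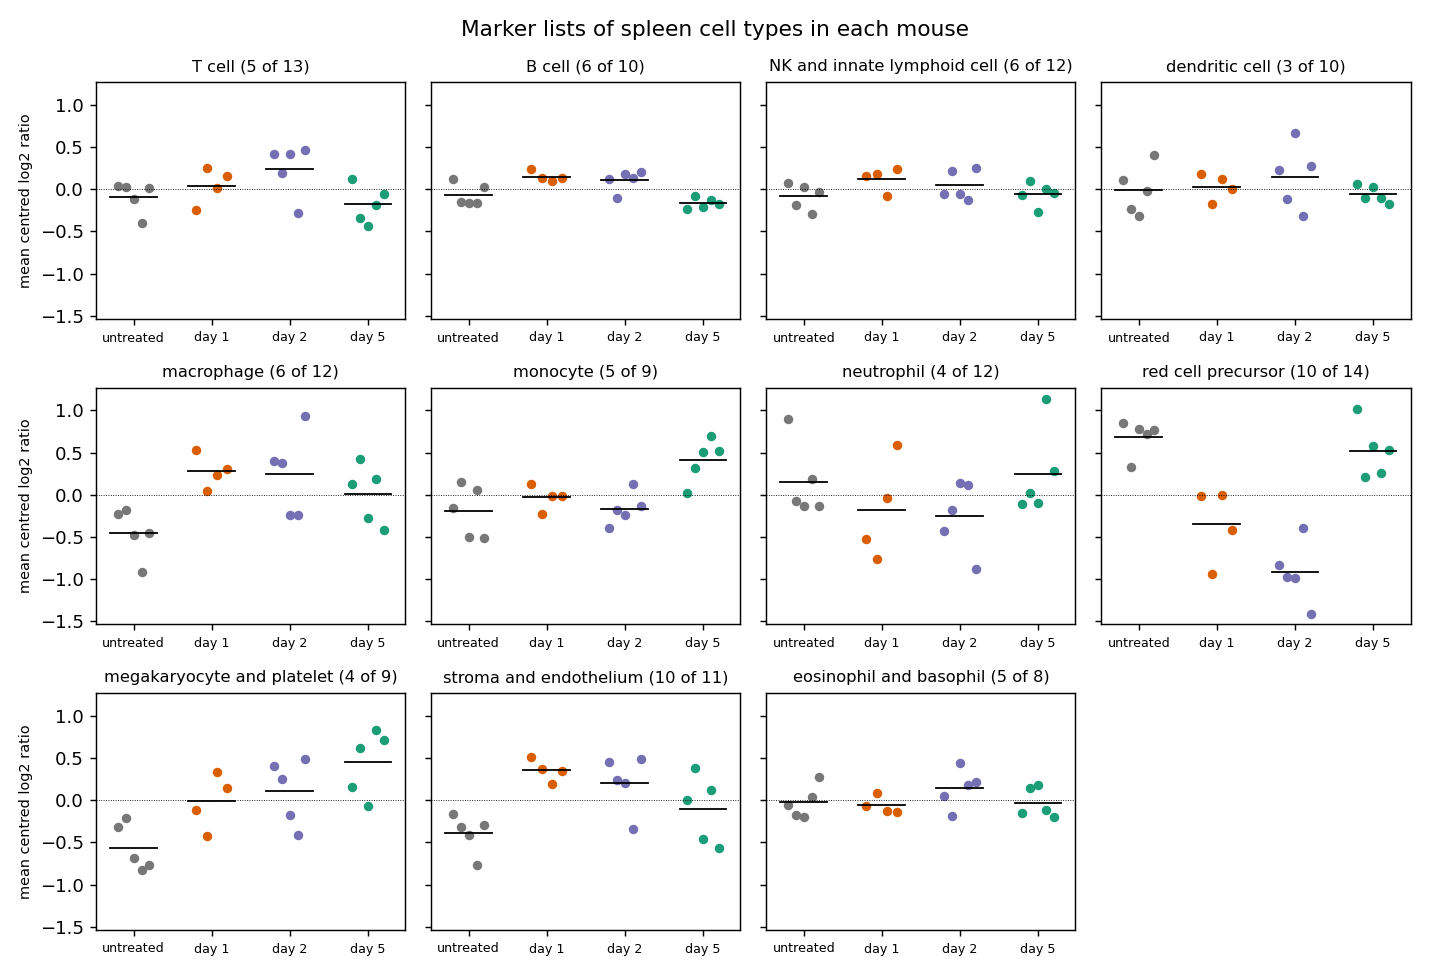
Mean centred log2 ratio of each marker list in each mouse (points), with the group mean (line), in untreated mice and on days 1, 2 and 5; titles give the genes measured of those listed. Macrophage and stroma lists are higher on day 1 than in every untreated mouse, and the red cell precursor list is lowest on day 2.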

How the data were processed

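The authors deposited a log2 ratio per probe (the log base is not stated and was taken as 2), spleen in Cy5 over the marrow pool in Cy3, bounded at -6 and 6. How the background was corrected, how arrays were normalized, and the software and build used are not stated by the labels or headers. Per the labels' protocols, RNA was extracted with a Qiagen RNeasy Midi kit and amplified with an Ambion amino allyl kit. Probes were named through GEO's platform annotation: 10032 had 1 gene, 170 several and 3241 none. The 2 arrays of a mouse were averaged. limma 3.58.1 in R 4.3.3 fitted the 19 mice of all 4 groups in one model (lmFit, eBayes), with Benjamini-Hochberg adjustment over 8319 probes that had values in at least 3 mice per group. The fit was checked on simulated data. Intervals are 95%. Text names all member probes, the 5 genes most like each, and list genes that passed a test, or otherwise up to 3 per list of smallest p, with others of the lists chosen after their values were seen. Each list gene was read from 1 probe, the one with values in most mice and then of the lowest probe ID. Members and lists were chosen with earlier results of these data known. Replicate numbers were not taken to pair mice across groups. The number of mice limits the precision. Figures used matplotlib 3.10.9 in Python 3.11.15.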

Additional observations from a re-analysis of the deposited data

Results flagged for a closer look

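Hif1a and Notch1 differed between day 5 and day 2 by a direct test of the 2 groups (limma, Benjamini-Hochberg over all probes). Hif1a was -0.56 on the log2 scale on day 5 against day 2 (adjusted p = 0.0132), with every day 5 mouse below every day 2 mouse. Notch1 was 0.63 on day 5 against day 2 (adjusted p = 0.0477). Both were called on day 2 against untreated mice and not on day 5. The day 2 mice that gave those calls also enter this test, so it is not independent of them. Nothing further is read from it, and the day 2 call of Notch1 was itself lost under several settings. No mouse stood apart from its group for Ahr, Stat3 or Id2 in Dixon's test of 12 groups.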

How the results depend on the processing

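The day 1 and day 2 differences of Ahr, Stat3 and Id2 kept their direction in every alternative that gave a value. They lay between 0.97 and 1.22 (day 1) and 0.88 and 1.26 (day 2) for Ahr, 0.28 and 0.58, and 0.65 and 0.94 for Stat3, and 0.52 and 1.05, and 1.23 and 1.80 for Id2. The rule used these contrasts and the alternatives reuse the same arrays, so the kept direction is a description and no support for the rises. On day 5 Ahr lay between 0.36 and 0.66 (adjusted p = 0.239 to 0.999, limma) and Id2 between 0.23 and 0.64. Stat3 reversed to -0.0152 without the 3 mice of lowest technical correlation, and with 1 mouse left out it ranged from -0.0701 to 0.224. Counts of changed probes moved more. On day 1 (194) they were 116 with equal spread of arrays, 452 with both arrays and the mouse as a random block, 403 with array weights, 123 without those 3 mice, and 109 to 224 with 1 mouse left out. On day 2 (691) they were 338 with quantile normalization, 345 with equal spread, 449 with only the groups compared and 450 without the 3 mice. On day 5 (6) they were 0 with the second technical arrays alone, with a variance trend and with the replicate block, 24 with the random block, 11 with a value required in 1 mouse per group, 1 with only the groups compared and 1 without the 3 mice, and 0 to 6 with 1 mouse left out. For day 2 against day 1 (5) they were 0 with quantile normalization and with equal spread, 27 with the random block, 8 with 1 mouse per group, 25 with array weights, 3 with the replicate block, 1 with only the groups compared, and 3 to 11 with 1 mouse left out. For day 5 against day 2 (441) they were 83 with quantile normalization, 142 with equal spread and 730 with the random block. List genes higher on day 1 were 0 without the 3 mice, and those higher on day 2 were 1 under quantile normalization and under equal spread. List genes lower on day 2 were 0 under both and without the 3 mice, and 0 to 1 with 1 mouse left out. On day 5, 50% of called probes were higher under quantile normalization, 60% with equal spread and 66.7% as deposited or centred on the median. Il4i1 on day 1 turned to 0.0821 with the second arrays alone, 0.00185 with the replicate block and, with 1 mouse left out, ranged from -0.326 to 0.0858 (highest without untreated mouse 5). Cyp1a1 on day 5 turned to -0.0368 with the second arrays alone and Jak3 on day 2 to -0.0178 without the 3 mice. Rela on day 2 passed without the 3 mice (0.51, adjusted p = 0.0430) and Il10rb on day 2 with the replicate block (-0.72, adjusted p = 0.0479). With the replicate block Ahr on day 5 was 0.54 (adjusted p = 0.916). Same-numbered mice of different groups deviated together with a mean r of 0.002 over 27 pairs (-0.253 to 0.349, 7 above 0.1). Differently numbered mice were not compared with these, so whether some numbers share more than a label was not tested. The causes were not tested.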
